A study of Bos taurus with 2 samples.

Results

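The genes described here are 9 macrophage genes, CD68, CD14, CSF1R, C1QA, C1QB, C1QC, CD163, AIF1 and TYROBP, as they were measured in the testes of crossbred and Zebu bulls. They were chosen by the gene name on the array, which gave 18 of 51282 probes and 9 of 32428 gene names. The crossbred group was Holstein Friesian crossbred with 50 to 75% exotic inheritance, and the Zebu group was of the Tharparkar breed. All bulls were adult, at 24 months, and the right testis had been removed by unilateral castration. Total RNA of 3 bulls was pooled in equal quantity within each group, and 1 Cy3-labelled array was hybridized per pool, with probes designed on Bos taurus sequence. A single array per group leaves no replicate check and no p-value, and the precision is limited by the number of arrays.

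Macrophages are the main resident immune cells of the testis, where they lie in the interstitium next to the Leydig cells and around the seminiferous tubules. CSF1R is the receptor for the growth factors that keep macrophages alive, and TYROBP is the adaptor that carries the signal of several surface receptors of myeloid cells. CD14 and CD163 are surface receptors for bacterial lipopolysaccharide and for haemoglobin bound to haptoglobin, CD68 is a lysosomal membrane protein, AIF1 binds calcium and actin, and C1QA, C1QB and C1QC are the chains of the complement protein C1q, which macrophages secrete.

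Every level below is the log2 of the processed signal minus the 75th percentile of its array, and differences, also log2, are those of crossbred testis from Zebu testis, positive where crossbred was higher. A difference of 1.5 or more in size, which is a linear fold of 2.83, was counted as higher or lower if the signal of the brighter array stood well above background. Signals well above background were found at 72.0% of the crossbred spots and 74.3% of the Zebu spots. Each of the 18 probes had 1 spot, so the spread was taken from 5960 other probes with several spots, where the SD of a difference between spots of the same probe was 0.33. In 95% of the probes with 2 spots, the differences of both spots lay within 0.70 of each other. Split by mean level, this limit was 0.84 from -5 to -2, 0.52 from -2 to 0 and 0.44 from 0 to 4. This spread holds no part of the labelling, the pooling or the animals. None of the 18 spots lay in the dark patch of the crossbred array, at rows 54 to 99 and columns 35 to 46, or in the bright patch, at rows 153 to 167 and columns 50 to 56. In pooled tissue RNA, fewer cells of a type and less RNA per cell cannot be told apart.

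AIF1 stood apart from the other 8 genes. Its single probe, A_73_115426, had a signal of 10018 in crossbred and 2720 in Zebu testis. The normalized levels were 3.09 and 1.14, a difference of 1.95, which is a linear ratio of 3.86 with crossbred testis higher. This is larger than the 0.70 within which 95% of spot pairs lay, and a little larger than the 1.70 within which 99% of them lay. Among all detected genes, 3.38% had a difference as high or higher. As AIF1 has no other probe on the array, its value rests on 1 spot of each array.

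The AIF1 probe lies on chromosome 23 from 27500530 to 27500589, on the minus strand of HGSC Btau_3.1, and starts at base 606 of its target transcript. The last 30 bases of its 60 are shown because they carry the hexamer of a polyadenylation signal, AATAAA, in capitals.
AIF1 probe, bases 31 to 60: taacttaAATAAAttatcctccttcagatg
This hexamer was found in 8 of the 18 macrophage probes and in 8.35% of all probes, and its reverse complement TTTATT in 1 of the 18 and in 3.30% of all probes. The letters do not show where transcripts end.

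The signal around the AIF1 spot did not follow it. Of the 18 spots nearest to it on the array, 11 were detected by 1 or both arrays, with differences from -1.22 to 1.88 and a median of 0.13. One of them, the spot of XM_002697075, was also past 1.5. With the median of these spots subtracted, AIF1 differed by 1.82. Within 100 kb of the AIF1 probe on the chromosome, 39 detected probes of 21 names had a median of 0.06. The nearest gene on each side is NCR3, a receptor of natural killer cells, whose probes differed by 0.27 and -0.46, and PRRC2A, whose nearest probe differed by 0.30. In this window 3 of the 39 probes were higher by 1.5 or more and 2 were lower, against 6.14% and 2.99% of all detected probes. Among those well above background on both arrays, the largest value, 2.11, was that of the cytokine gene LTA. A probe of LY6G6E, dim in Zebu testis, had a measured difference of 3.05 and a bound of 1.51.

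**Figure D1:**
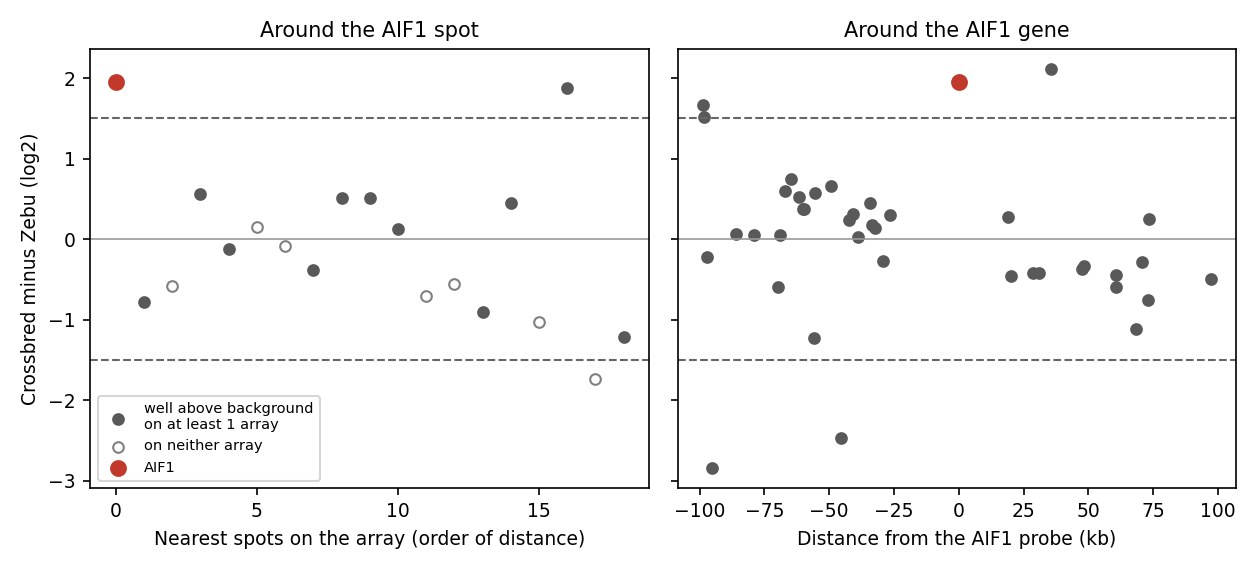
Difference between the arrays (crossbred minus Zebu, log2) of the AIF1 probe in red and, on the left, of the 18 spots nearest to it on the array in order of distance, and, on the right, of detected probes within 100 kb of it on the chromosome by distance in kb. The dashed lines mark 1.5 in both directions, AIF1 lies at 1.95, and the medians of its neighbours were 0.13 and 0.06.

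TYROBP and CD14 came next in size, without reaching 1.5. The brighter TYROBP probe, A_73_118891, had -0.03 in crossbred and -0.56 in Zebu testis, which differ by 0.53. The second, A_73_P030636, had -0.52 and -1.45, a difference of 0.93. Both TYROBP probes were thus brighter in crossbred testis, the second by more than 0.70. They lie side by side on chromosome 18, from 46016252 to 46016311 and from 46016359 to 46016418. The spots around the second TYROBP probe had a median of -0.38, and with it subtracted the difference was 1.31.

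The 3 probes of CD14 did not move together. A_73_116002 had 2.93 in crossbred and 2.37 in Zebu testis, and A_73_P108626 had 0.27 and -0.60, which gives differences of 0.56 and 0.86. A_73_105177 went the other way, with -0.24 and 0.01, a difference of -0.25 that is less than the spot SD. The first pair was placed on chromosome 7 from 51085608 to 51085667 and from 51086096 to 51086155 and was assigned to the RefSeq transcript of CD14. The last was placed from 51084103 to 51084162 and was assigned to other transcript records, starting at base 2720 of its target. Which of these transcripts the tissue held was not tested.

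The chains of C1q were at nearly the same level in both groups. Over the 6 probes of C1QA, C1QB and C1QC, differences ran from -0.20 to 0.16 with a median of -0.06, and each was smaller than the spot SD of 0.33. C1QA had 2.74 in crossbred and 2.61 in Zebu testis with its brighter probe, a difference of 0.13, and -0.51 and -0.67 with the other, a difference of 0.16. C1QC had 0.85 and 1.02, a difference of -0.17. These 3 genes lie next to each other on chromosome 2, where their probes span 23.8 kb from 134649306 to 134673128. The spots around the dimmer C1QA probe had a median of -0.57, and with it subtracted this probe differed by 0.73, the only one of the 6 to move by more than the spot SD.

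C1QB gave the closest check of the measurement, as a pair of its probes is almost the same sequence printed at distant rows of the array, 176 and 238. They share 57 of their 60 bases with an offset of 3. Their last 30 bases are shown with the shared part in capitals.
C1QB probe A_73_108812, bases 31 to 60: CCCTAAATGATTGAATAATAAATGACCTCT
C1QB probe A_73_P445276, bases 31 to 60: TAAATGATTGAATAATAAATGACCTCTgaa
The first had 1.67 in crossbred and 1.87 in Zebu testis, and the second 1.75 and 1.76. Their differences were -0.20 and -0.01, which lie 0.19 apart. The C1QB probe elsewhere on the transcript, A_73_P040251, had 1.78 and 1.89, a difference of -0.11.

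CSF1R offered the same check with probes that share 52 bases. A_73_P045266 had 0.62 in crossbred and 0.81 in Zebu testis, and A_73_118762, 38 rows away, had 0.60 and 0.79. Both differed by -0.19, with a gap of 0.002 between them. The third CSF1R probe, A_73_P290976, was not well above background on either array and gives no value. It starts at base 2711 of its target, against 3747 for the first.

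CD68 had low signals and the same small difference in both probes. A_73_P399391 had -2.39 in crossbred and -2.59 in Zebu testis, which differ by 0.20, and A_73_106271 had -4.27 and -4.44, a difference of 0.18. Among the 12 detected spots around the second CD68 probe, the median was -0.86, and with it subtracted the difference was 1.03.

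CD163 was at the floor of the arrays. Its single probe had a signal of 15.3 on the crossbred array, not well above background, and of 21.8 on the Zebu array, where it was well above background. Its Zebu level of -5.82 did not reach -5.78, the smallest crossbred value that is well above background, so no fold is given. By its annotation the CD163 probe spans 2188 bases of chromosome 5, from 109177958 to 109180145, and it starts at base 398 of its target. The probes of C1QA, CD68 and CD163 that begin farthest from the end of their targets are printed whole to show what was hybridized.
C1QA probe A_73_P116901, chr2:134673069-134673128, minus strand: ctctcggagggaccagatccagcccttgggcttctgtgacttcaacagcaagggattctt
CD68 probe A_73_P399391, chr19:27817263-27817322, plus strand: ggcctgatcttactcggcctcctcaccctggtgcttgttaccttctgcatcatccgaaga
CD163 probe A_73_P474123, chr5:109177958-109180145, plus strand: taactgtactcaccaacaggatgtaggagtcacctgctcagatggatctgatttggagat

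**Figure D2:**
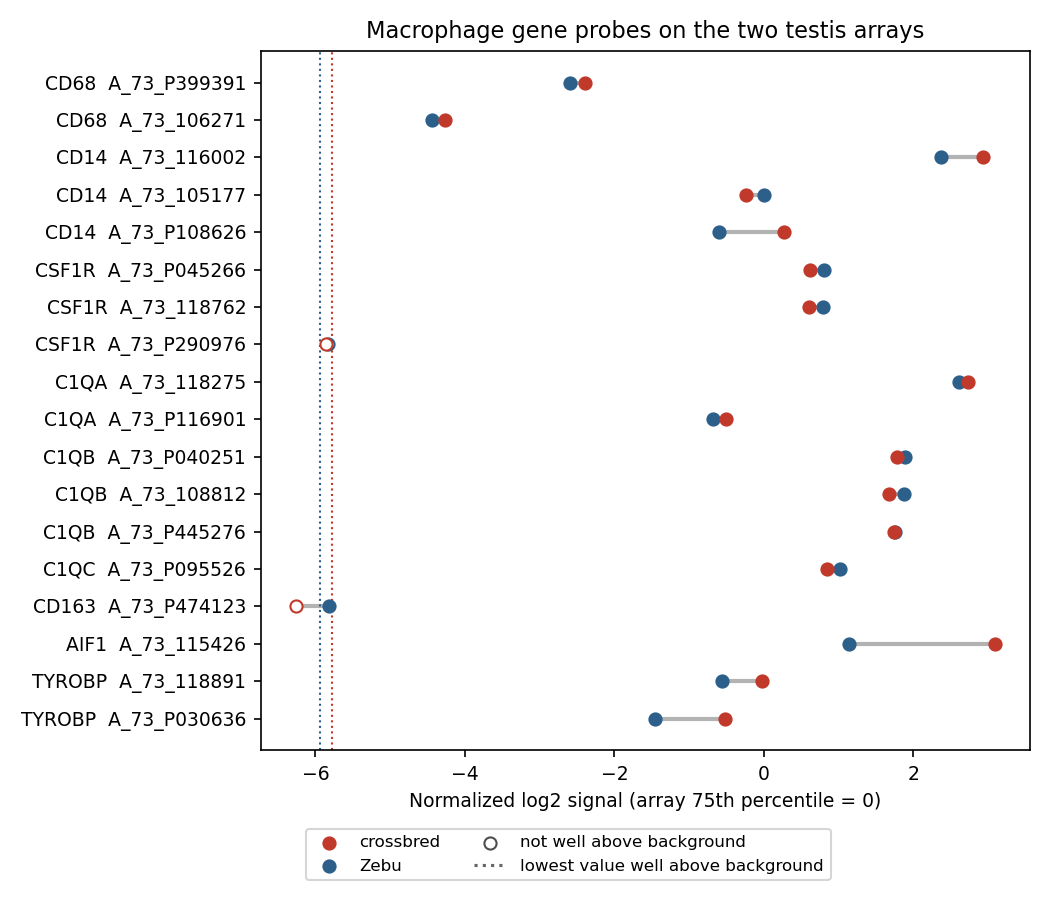
Normalized log2 signal of the 18 macrophage gene probes on the crossbred array (red) and the Zebu array (blue), with 1 value per probe and array, hollow where the probe was not well above background. The dotted lines are the lowest values well above background, -5.78 and -5.94, and the widest gap is that of AIF1, from 1.14 to 3.09.

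Across the members, 16 of the 18 probes were well above background on both arrays, that of CD163 on the Zebu array only and 1 of CSF1R on neither. One probe, that of AIF1, was higher by 1.5 or more, against 6.14% of the 39804 detected probes, and 0 were lower, against 2.99%. At a log2 difference of 2, 0 were higher and 0 lower, against 2.98% and 1.33% of detected probes. At a linear fold of 1.5, 3 were higher, the AIF1 probe, TYROBP probe A_73_P030636 and CD14 probe A_73_P108626, and 0 lower, against 20% and 22.8%. Of the 16 probes, 9 lay above 0 and 7 below it, and 46.5% of all probes well above background on both arrays lay above 0. Differences under 0.5 in size were found for 11 of the 16, against 53.4% of all such probes. Read from the brightest probe of each gene, the median over the 9 genes was 0.13, against -0.05 over the 24751 detected genes. Of the 9 genes, 1 was higher by 1.5 or more, against 7.12% of detected genes, and 0 were lower, against 2.92%.

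**Figure D3:**
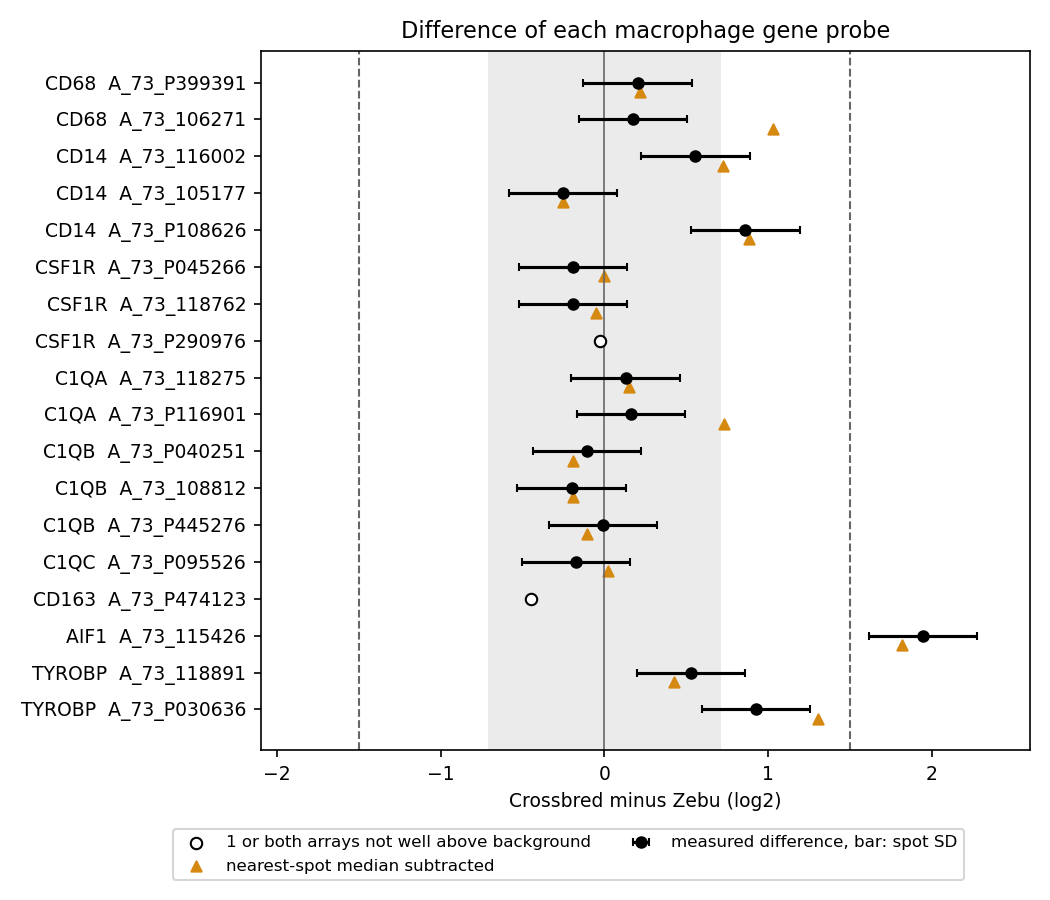
Difference between the arrays (crossbred minus Zebu, log2) of each of the 18 probes, with bars for the SD between replicate spots, 0.33, and triangles for the difference after the median of the nearest spots was subtracted. The grey band is the 0.70 within which 95% of spot pairs lay, the dashed lines mark 1.5, and AIF1 is the only probe past them.

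**Figure D4:**
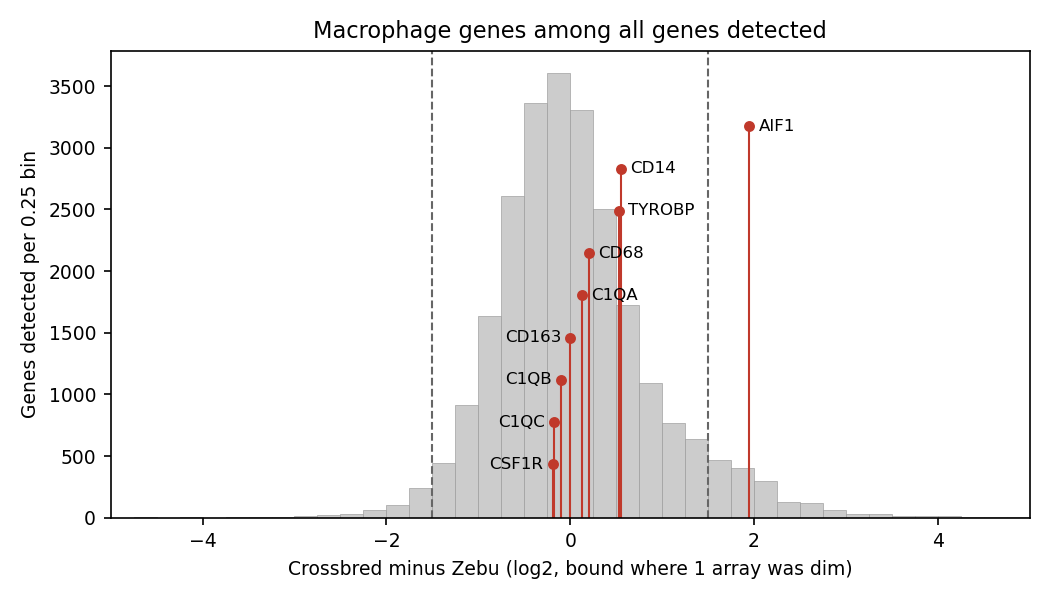
Number of detected genes by their difference between the arrays (crossbred minus Zebu, log2) in bins of 0.25, with the 9 macrophage genes in red at their own differences (the height of a red line has no meaning). AIF1 lies at 1.95, past the dashed line at 1.5, and the others lie from -0.19 to 0.56.

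The genes that act with the members were taken from 10 lists, of which 123 of 130 genes were found on the array and 113 were detected. Each is counted below by its brightest probe. Of these, 4 were higher by 1.5 or more and 6 lower, which is 3.54% and 5.31%, against 7.12% and 2.92% of all detected genes. Their median was -0.19. One of the 6, SIGLEC1, a sialic acid receptor of macrophages, was at least 6.80-fold lower, but its spot lies in the dark patch of the crossbred array, where the nearest spots had a median of -3.50. It has no other detected probe, so its value cannot be told apart from that of the patch. Without SIGLEC1, 4 of 112 were higher and 5 lower. Some genes that were not counted had a dimmer probe past 1.5, and those given with their lists were chosen after their values were seen.

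Around CSF1R, its ligands CSF1 and IL34 had differences of 0.43 and 0.87, and their second probes -1.24 and 0.29. The probes of CSF1 thus opposed each other. SPI1, the transcription factor that sets myeloid identity and drives CSF1R, had 1.53 in crossbred and 0.87 in Zebu testis, which differ by 0.66, against 0.71 and 1.26 in its other probes. No detected gene among 8 CSF1R ligands and signalling genes or among 9 myeloid transcription factors passed 1.5 by its brightest probe, and the medians were 0.38 and 0.17. The second probe of KLF4, one of these transcription factors, was higher by 2.22, against 0.57 in the brightest.

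Around TYROBP, the receptor TREM2 had -1.76 in crossbred and -2.84 in Zebu testis, which differ by 1.08, and SYK, the kinase that TYROBP recruits, differed by 0.30. Of 13 detected partners of TYROBP, 0 passed 1.5 in either direction, with a median of -0.08. Around CD14, LY96, the co-receptor that holds lipopolysaccharide, had 3.90 and 3.18, a difference of 0.71, and 0.99 in its second probe. TLR4, which signals from that complex, differed by -0.74, but its other probes by -0.12 and -0.08. Of 16 detected genes of this pathway, 1 was higher by 1.5 or more and 0 were lower. These shares were 6.25% and 0%, against 7.12% and 2.92% of all detected genes. The higher gene was IL6, the inflammatory cytokine, with -1.70 and -3.87, a difference of 2.17 on a single detected probe. LBP, which hands lipopolysaccharide to CD14, differed by -0.06 in its brightest probe and -0.18 in another. The remaining LBP probe had -0.92 in crossbred testis and was not well above background in Zebu testis, a bound of 5.02. The spots nearest to that probe had a median of 1.24.

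Around C1q, the proteases that complete the C1 complex were both dimmer in crossbred testis. C1R differed by -0.48 and -0.65 in its 2 probes. C1S had 1.72 in crossbred and 2.71 in Zebu testis, which differ by -0.99, against -0.96 and -1.90 in its other probes. Around the brightest probes, the nearest spots had medians of 0.34 for C1R and -0.46 for C1S. C3, the central component of the cascade, had -0.31 and -1.08, a difference of 0.76, and the median of its 4 other probes was 0.28. Of 15 detected complement enzymes and regulators, 1 was higher by 1.5 or more and 0 were lower. These shares were 6.67% and 0%, against 7.12% and 2.92% of all detected genes. The higher gene was CD59, an inhibitor of the membrane attack complex, with 1.56 on its single detected probe. The spots nearest to that probe had a median of 0.25, which the count does not subtract. The dimmer C1S probe at -1.90 is not in this count. CD46, a regulator on the cell surface, differed by -0.48 in its brightest probe, while its 5 other probes ran from 0.75 to 1.53. Among complement receptors, C3AR1 had -4.48 in crossbred and -3.48 in Zebu testis, and ITGB2, the shared chain of leukocyte integrins, differed by -0.38. ITGAM, the chain that pairs with it on macrophages, was not well above background on either array.

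For CD163, the enzyme HMOX1, which breaks down the haem that CD163 brings in, had 0.84 in crossbred and 1.86 in Zebu testis, which differ by -1.02. The spots nearest to the HMOX1 probe had a median of -0.47. None of the 9 genes of haem and iron handling passed 1.5 by its brightest probe. BLVRB, a biliverdin reductase, differed by -0.30 there and by -0.14 in another probe, while the remaining probe had a bound of -6.79 and lies in the dark patch, where the nearest spots had a median of -7.55. Among 17 genes of lysosome and phagosome, NCF4 and CYBB, subunits of the phagocyte NADPH oxidase, went in opposite directions. NCF4 had 4.40 and 1.34, a difference of 3.06, with 3.01 in its second probe. CYBB had -5.47 and -3.74, a difference of -1.73, with -2.48 in its second probe. The other 15 genes of this list stayed within 1.5 by their brightest probes, and a dimmer probe of LGMN, a lysosomal protease, had a measured difference of -1.53 and a bound of -1.07.

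Of 15 other macrophage markers detected, 1 was higher by 1.5 or more and 5 were lower, with a median of -0.45, against 7.12% and 2.92% of all detected genes. The 5 include SIGLEC1 in the dark patch, and without it 1 of 14 was higher and 4 were lower, with a median of -0.03. MARCO, a scavenger receptor, was higher by 1.81 on a level of -3.99. MSR1, another scavenger receptor, had -3.06 in crossbred and -1.52 in Zebu testis, which differ by -1.55, with -1.20 in its second probe. CX3CR1, the fractalkine receptor, differed by -2.22, but its second probe by -0.59, and FCGR2, an Fc receptor, was at least 3.78-fold lower, but its second probe differed by -0.20. FCGR3A, an Fc receptor named here after its values were seen, differed by -1.69, and its other probes by -1.61 and -1.15. Around the brightest probes, the nearest spots had medians of -0.35 for MSR1, -0.24 for FCGR3A, -0.36 for CX3CR1, 0.10 for FCGR2 and 0.09 for MARCO. The counts do not subtract these medians. With them subtracted, MSR1 and FCGR3A would lie within 1.5, and CX3CR1, FCGR2 and MARCO past it. MRC1, the mannose receptor, read from the probe with its accession, differed by 0.63 and CD74, the invariant chain of MHC class II, by -0.56. PTPRC, which all leukocytes carry, had 1.05 and 1.11, a difference of -0.06, although its other probes had a median of -0.78.

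Markers of the other cells of the testis differed between the arrays as well. Over all detected genes, 7.12% were higher by 1.5 or more and 2.92% were lower. Of 7 spermatid markers, 4 were higher by 1.5 or more and 0 lower, with a median of 1.64, and their summed signal was 478 times the 75th percentile on the crossbred array and 265 times on the Zebu array. Of 6 Leydig cell markers, 0 were higher and 2, HSD3B1 with -1.77 and CYP17A1 with -1.68, were lower, with a median of -0.79 and sums of 87.8 and 133. The medians were -0.99 over 6 Sertoli cell markers, -0.77 over 6 of peritubular and smooth muscle cells and 0.03 over 7 of endothelial cells, and none of these passed 1.5 by its brightest probe. The second probe of INHA, a Sertoli cell marker, differed by -1.58, against -1.08 in the brightest. All of these lists had detected members on both arrays. Their part in the values of the macrophage genes was not tested.

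**Figure D5:**
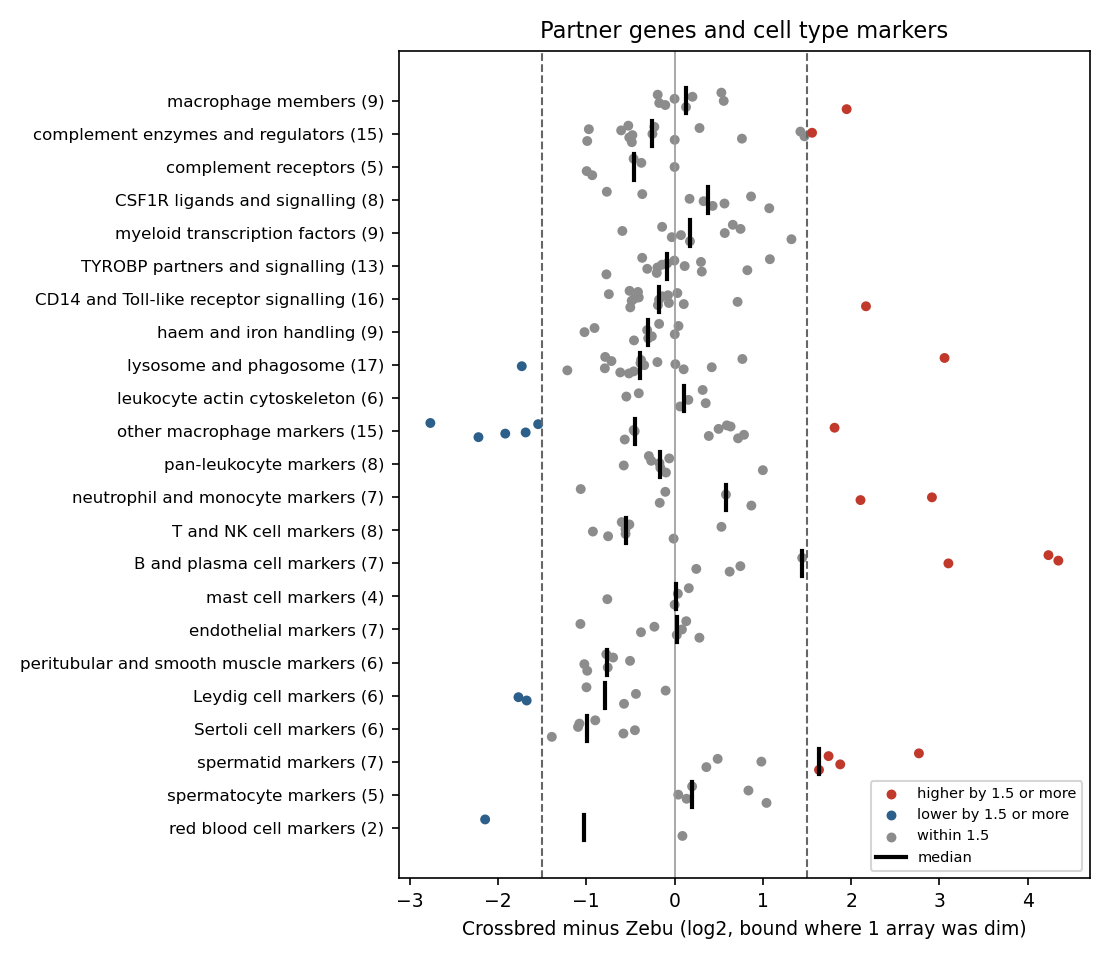
Difference between the arrays (crossbred minus Zebu, log2) of each detected gene of the macrophage genes, their 10 partner lists and 12 lists of cell type markers, with the number detected in brackets, 1 point per gene and a bar at the median. The dashed lines mark 1.5, the macrophage genes have a median of 0.13, and the spermatid markers one of 1.64.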

How the data were processed

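The 2 arrays, 1 of pooled crossbred and 1 of pooled Zebu testis RNA, were grouped by their sample titles. The authors deposited the processed signal of each spot, an intensity from Agilent Feature Extraction 11.5.1.1 with its background subtracted and the spatial trend removed (per the file headers). The authors also deposited a table of log2 values shifted by the 75th percentile, with medians of -3.00 and -3.01.

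Control spots and 13 outlier spots were left out. Processed signals were put on the log2 scale and averaged for probes with several spots. From each array its 75th percentile over probes was then subtracted, which was a signal of 1176 for crossbred and 1233 for Zebu. Each gene was represented by its brightest probe over both arrays. Where a probe was dim (not well above background) on 1 array, a bound was used, the bright level minus the higher of the dim level and the lowest level well above background, or 0 where this had no size. Counts past 1.5 used the measured difference, and medians used the bound. The 18 nearest spots gave a local median where 6 or more were detected. Members, lists and thresholds were chosen with earlier results of these data known. The genes named are the members, 19 direct partners, and in each list at most 4 of the genes past 1.5, the largest in size. FCGR3A and the genes with a dimmer probe past 1.5 (KLF4, LBP, CD46, BLVRB, LGMN, INHA and CD37) fall outside this rule. They were named after their values were seen, as were LTA, LY6G6E and XM_002697075 around AIF1, and AHSP, HBB, ALAS2 and SLC4A1. NCR3 and PRRC2A were named by their position. Of 221 listed symbols, 207 matched a name on the array and 3 a synonym or accession in the ARS-UCD2.0 gene table.

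Alternatives were tried for the background correction (normexp, offset 50), for the scaling (the median, the 75th percentile of probes detected by both arrays, quantiles, or the deposited log2 values), for spots (patches left out, local median subtracted, dim probes left out), for the threshold and for the probe that stands for a gene. The steps were tested on simulated data. Python 3.11.15, numpy 2.4.6, pandas 2.3.3, scipy 1.17.1, R 4.3.3 and limma 3.58.1 were used.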

Additional observations from a re-analysis of the deposited data

How the results depend on the processing

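The count of macrophage probes higher by 1.5 or more was 1 under each other normalization and filter tried, and the count of lower probes was 0. With a threshold of 2, 0 probes were higher, and with a linear fold of 1.5, 3 were higher. The median over the macrophage genes lay between 0.04 and 0.19 under 10 alternatives, 1 of which, with only probes well above background on both arrays, left out CD163 and gave 0.17 over 8 genes. AIF1 ran from 1.77 to 1.95, the lowest after the nearest-spot medians were subtracted across the crossbred array and the arrays scaled again (1.82 before scaling). Of 89 values of single genes under an alternative, 88 moved by less than the spot SD, and the exception was CD163, at -0.53 after the median of the nearest spots was subtracted, where its bound had been 0. For the other lists, only normexp and the scalings by median, by quantiles and by probes detected by both arrays were tried. Of these 88 medians, 1 moved by more than the spot SD, that of the B and plasma cell markers. It was 1.04 after normexp background correction. The lists were not tried with patches left out or the local median subtracted. Without SIGLEC1, in the dark patch, the median of the other macrophage markers went from -0.45 to -0.03. Higher probes made up 67.3% of all probes past 1.5, and 83.9% after normexp. No paired analysis was possible because each group has 1 array. The dim signals of CD163, ITGAM and the third CSF1R probe limit what can be read from them.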

Other observations

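Lists of other leukocytes were read in the same way, beside the 7.12% of all detected genes that were higher by 1.5 or more and the 2.92% lower. Of 7 detected neutrophil and monocyte markers, 2 were higher by 1.5 or more and 0 lower, with a median of 0.58. S100A12, a calcium-binding protein of granulocytes, had 1.54 in crossbred and -1.37 in Zebu testis, a difference of 2.92, against 3.84 and 4.10 in its other probes. MPO, the peroxidase of neutrophil granules, had 0.57 and -1.54, a difference of 2.11 on its single detected probe. The summed signal of this list was 5.38 times the 75th percentile on the crossbred array and 1.83 times on the Zebu array.

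Of 7 B and plasma cell markers, 3 passed 1.5 with crossbred higher, 0 passed it lower, and the median was 1.45. Over all detected genes, 7.12% passed it higher and 2.92% lower. IGJ, the joining chain of secreted immunoglobulins, had 1.72 in crossbred and -1.38 in Zebu testis, and its second probe differed by 3.21. PAX5, the transcription factor of B cells, differed by 4.24 on its single detected probe. MS4A1, the surface protein CD20, was at least 20.4-fold higher in crossbred testis, with a difference of 1.59 in its second probe. Around the brightest probes, the nearest spots had medians of 0.36 for IGJ, 0.95 for PAX5 and 0.49 for MS4A1. Of 8 detected T and NK cell markers, 0 passed 1.5 in either direction, with a median of -0.56, and of 8 pan-leukocyte markers 0 passed it, with a median of -0.17. Of 5 red blood cell markers 2 were detected, of which 0 were higher by 1.5 or more and 1 was lower, with a median of -1.03. HBA, a haemoglobin chain, had -0.93 in crossbred and 1.22 in Zebu testis, which differ by -2.15. AHSP, the chaperone of that chain, differed by 0.09 and by 0.32 in its second probe. HBB, ALAS2 and SLC4A1 were not well above background on either array.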
